A study of Homo sapiens with 5 samples.

Results

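Kinesins are motor proteins that use ATP to move along microtubules or to take their ends apart. The family was taken here as every gene whose symbol is KIF with a number and an optional letter A, B or C, or KIFC with a number, which gave 42 of the 60623 genes in the table. Of these, 12 are known chiefly for work in mitosis (KIF2C, KIF4A, KIF11, KIF14, KIF15, KIF18A, KIF18B, KIF20A, KIF20B, KIF22, KIF23 and KIFC1), and the other 30 carry cargo or have other or mixed roles. All 12 mitotic kinesins and 23 of the other 30 passed the expression filter, so 35 kinesins were tested.

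The transcriptome was read by RNA-seq in HCT116, an epithelial line established from a human colorectal carcinoma, which divides continuously in culture. The libraries compared were 2 from cells treated with LT4 (replicates 1 and 3) and 3 control libraries (replicates 1 to 3), all of the same line with no engineered allele named. The labels give no dose, exposure time or vehicle, and they leave unsaid whether the replicates were separate cultures. The p-values therefore reflect library-to-library spread only, and that spread may be technical. The library titles and the design text name LT4, whereas the series title names LT3.

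LT4 replicate 3 stood apart in depth. The LT4 libraries held 9840467 and 2281912 counts and the control libraries 11653484 to 12296916. Mitochondrial genes took 5.73% and 9.92% of counts in the LT4 libraries, against 5.83% to 6.64% in the controls, the higher LT4 value being that of replicate 3. A total of 3 counts corresponded to 0.305 and 1.31 counts scaled to the library total (counts per 1000000, CPM) in the LT4 libraries, against 0.244 to 0.257 CPM in the controls. The epithelial markers EPCAM, CDH1, KRT8, KRT18 and KRT19 were present in all 5 libraries. The 7 leukocyte markers looked at summed to 0.792 and 0.870 CPM in the LT4 libraries, against 0.406 to 1.04 CPM in the controls; 2 of them, PTPRC and CD3E, were at 0 in all 5 libraries. The 8 fibroblast markers summed to 14.4 and 10.0 CPM in the LT4 libraries, against 16.7 to 18.3 CPM in the controls, nearly all of it COL1A1, and 2 of them, DCN and PDGFRA, were at 0 throughout. The 6 hepatocyte markers summed to 7.12 and 9.57 CPM in the LT4 libraries, against 5.27 to 11.5 CPM in the controls, mostly SERPINA1, with TTR at 0. In bulk RNA of this kind, a change in the share of cells in mitosis and a change in RNA per cell cannot be told apart.

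Mitotic kinesins build the spindle, move and align chromosomes, and organise the spindle midzone for cytokinesis, and many of their transcripts peak in G2 and mitosis. Transport kinesins carry mitochondria, vesicles, endosomes and ciliary components, mostly towards microtubule plus ends. In dividing cancer cells the mitotic members are usually abundant, and several of them, KIF11 above all, have been drug targets.

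The cell cycle genes homology region, a promoter element through which the DREAM and MuvB complexes act on G2 and mitosis genes, has the core TTTGAA, and CCAAT is the box bound by NF-Y. Both motifs were searched on both strands in RefSeq promoter windows of 300 bases (GRCh38.p14), which run from 250 bases before to 50 bases after each gene's start. The windows could be matched for 34 kinesins, all 12 mitotic ones and 22 others. TTTGAA was present in 9 of the 12 mitotic windows (75.0%) and in 2 of the 22 others (9.09%), against 15.4% of all 27305 promoter windows. Those 2 others were KIF5B and KIF4B, the latter a near-identical copy of the mitotic KIF4A. CCAAT was present in 10 of the 12 mitotic windows (83.3%) and in 7 of the 22 others (31.8%), against 35.7% of all windows. These counts describe letters in the windows and not occupied sites, and a window with no match says only that these letters are not in it. The stretches around TTTGAA in the mitotic kinesins are shown because of its known part in G2 and mitosis genes; CCAAT matched in 1 mitotic window more. The motif stands in capitals, written on the gene's strand, so that TTCAAA is TTTGAA read on the opposite strand.
KIF11 (chr10:92593090-92593119, + strand): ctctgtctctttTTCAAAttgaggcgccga
KIF15 (chr3:44761747-44761776, + strand): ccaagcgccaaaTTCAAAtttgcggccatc
KIFC1 (chr6:33391815-33391844, + strand): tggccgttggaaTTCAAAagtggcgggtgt
KIF18A (chr11:28108149-28108178, - strand): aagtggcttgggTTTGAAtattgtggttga
KIF18B (chr17:44947754-44947783, - strand): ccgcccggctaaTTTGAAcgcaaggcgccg
KIF4A (chrX:70290058-70290087, + strand): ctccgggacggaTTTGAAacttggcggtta
KIF23 (chr15:69414282-69414311, + strand): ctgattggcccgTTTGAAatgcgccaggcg
KIF20B (chr10:89701602-89701631, + strand): tggccgccattgTTTGAAtttgaaaacggt
KIF14 (chr1:200620733-200620762, - strand): gcggggcgcccaTTCAAAttgcggccttct
In KIF20B a second TTTGAA follows the first directly, in lower case here. KIF2C, KIF20A and KIF22 had no TTTGAA in the window.

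The kinesin transcript pool of HCT116 cells was mostly mitotic. Levels of different genes were compared in TPM, the deposited values scaled for transcript length. Summed over all 42 kinesins, the level was 937 and 686 TPM in the LT4 libraries, against 826, 811 and 695 TPM in the controls. The 12 mitotic kinesins made up 69.2% and 67.9% of that sum in the LT4 libraries, against 72.1%, 72.2% and 70.2% in the controls. Both LT4 shares were below every control share. The means were 68.6 ± 0.962% in LT4 libraries (SD, n = 2) and 71.5 ± 1.09% in controls (SD, n = 3), a gap given as a description with no test.

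In control cells KIF22, a chromosome-bound motor that pushes chromosome arms away from the poles, was highest at 169 ± 18.4 TPM (SD, n = 3). KIF2C, a microtubule depolymerase of centromeres, followed at 109 ± 5.43 TPM, and KIF1C, a vesicle transporter and the only non-mitotic kinesin at this level, stood at 104 ± 9.52 TPM. KIFC1, a minus-end motor that focuses spindle poles, had 102 ± 17.0 TPM and KIF20A, a cytokinesis motor, 82.5 ± 14.9 TPM. The control range of KIF22 lay above that of KIF2C, whereas KIF2C, KIF1C, KIFC1 and KIF20A each overlapped their neighbour in the order. A gap without overlap separated KIF20A from KIF4A at 36.3 ± 1.43 TPM, and another separated KIF4A from KIF18B at 23.6 TPM. Most of the remaining neighbours in the order overlapped. KIF20B, KIF14 and KIF15 were the lowest mitotic members.

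**Figure D1:**
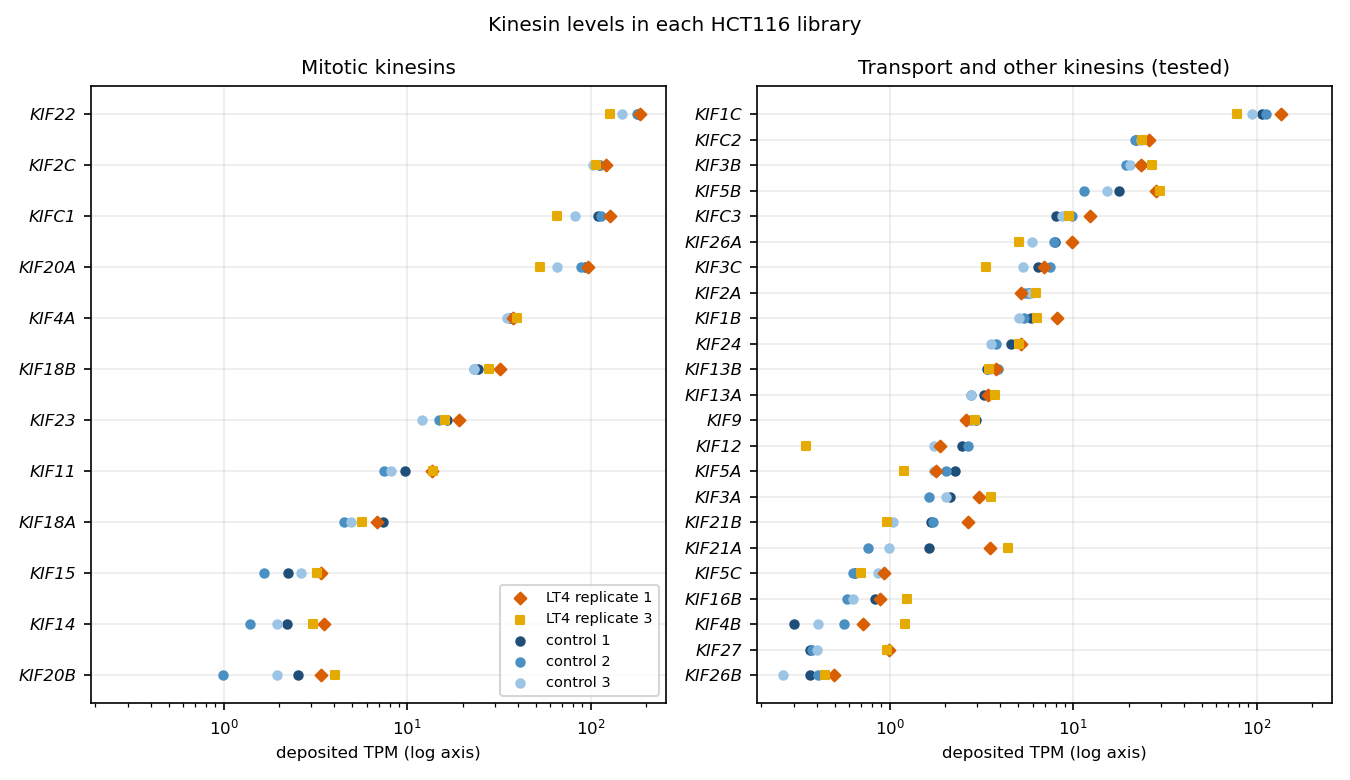
Level of each tested kinesin in each library, in deposited TPM on a log axis, with mitotic kinesins on the left and transport and other kinesins on the right, ordered by control mean. Diamonds and squares are LT4 replicates 1 and 3, and circles are the 3 controls. KIF22, KIF2C, KIF1C, KIFC1 and KIF20A have the highest control means, from 169 down to 82.5 TPM, with KIF20A as low as 52.6 TPM in LT4 replicate 3. KIF21A and KIF5B have both LT4 libraries to the right of all controls.

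A further 7 kinesins, all outside the mitotic class as listed here, had fewer than 10 counts in every library and did not pass the filter. KIF17, a homodimeric kinesin-2 of cilia and dendrites, had 5 and 5 counts in the LT4 libraries, against 5, 6 and 9 in the controls. Scaled for depth these were 0.495 and 2.18 CPM in the LT4 libraries, against 0.406, 0.520 and 0.778 CPM in the controls, the value of the shallow LT4 replicate 3 being the highest. KIF19, a depolymerase of ciliary tips, had 0 in both LT4 libraries, against 2, 2 and 1 in the controls. KIF1A, a neuronal transporter of synaptic vesicle precursors, had 2 and 0 counts in the LT4 libraries, against 0, 1 and 1 in the controls. KIF6, KIF7 and KIF25 had 0 in both LT4 libraries and a single count in 1 of the 3 controls each. KIF2B was at 0 in all 5, which allows up to 0.305 and 1.31 CPM in the LT4 libraries and up to 0.257 CPM in the controls. No test was made for these members. KIF7 shares its locus with TICRR, and reads from the overlap may not have been assigned to it.

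Against this baseline, the LT4 libraries were compared with the controls by edgeR's quasi-likelihood test over all 13833 genes that passed the filter. No kinesin passed an adjusted p of 0.05. Over all genes, 19 passed, which is 0.137% (0.123% higher and 0.0145% lower). With p left unadjusted, 9 kinesins were higher and 0 lower at 0.05, against 8.58% of all genes higher and 5.28% lower. Among the mitotic members these were KIF11, KIF14, KIF18B and KIF20B, and among the others KIF21A, KIF5B, KIF27, KIF1B and KIF3A. DESeq2 called 2 kinesins, KIF21A and KIF5B, both higher in the LT4 libraries, against 1.1% of the 10346 genes to which it gave an adjusted p. Limma voom called 0, against 0.123% of all genes.

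The fitted log2 fold changes of the kinesins lay mostly above 0. Of the 35 tested, 26 were positive (9 of 12 mitotic and 17 of 23 others), against 49.6% of all genes tested. The median was 0.20 for mitotic kinesins and 0.22 for the others, with -0.00 for all genes. For 16 of the 35 (6 mitotic, 10 others) the LT4 values both exceeded the highest control, against 17.3% of all genes. For 2, KIF12 and KIF5A, both were under the lowest control, against 16.5%. Without LT4 replicate 1 the number of kinesins below every control was 9, against 37.2% of all genes, without LT4 replicate 3 it was 5, against 33.1%, and without control replicate 3 it was 4, against 21.4%. KIF4B reached the filter's CPM minimum in both LT4 libraries but in 1 control only, and KIF12 in 1 LT4 library and all 3 controls, so for those 2 the filter was met mainly through 1 group.

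**Figure D2:**
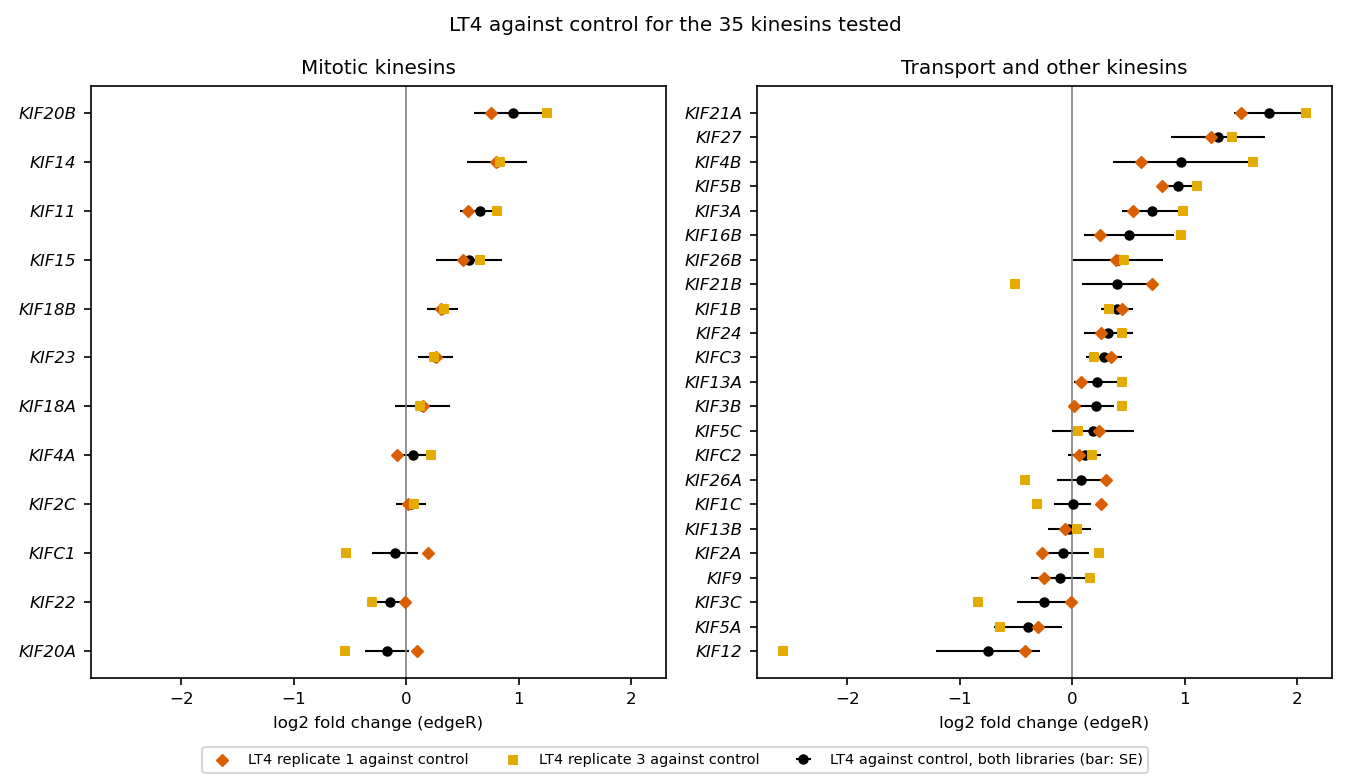
Log2 fold change against control for each of the 35 tested kinesins, mitotic on the left and others on the right. Diamonds are LT4 replicate 1, squares LT4 replicate 3, and black circles the fit of both libraries with its standard error. Most symbols lie right of 0, KIF21A reaches 1.75 in the fit of both libraries, and KIF12 in LT4 replicate 3 lies farthest to the left at -2.57.

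Gene sequence properties were set beside these fold changes. Across the 35 kinesins, the fold change of LT4 against control had a Pearson r of -0.57 with the GC content of the longest transcript, compared with -0.28 across 13772 genes. The r with log2 exon length was 0.29 across the 35, 0.81 for the 12 mitotic kinesins and 0.21 for the 23 others, against 0.24 across 13780 genes. These are correlations across genes of the same 5 libraries, which are not independent replicates. The median GC content was 44.3% for mitotic kinesins, 49.5% for the others and 49.3% for all genes tested. With a GC trend removed from each library, an alternative added after the data were seen, the mitotic median was 0.10 and the median of the others 0.28. With a gene length trend removed the medians were 0.15 and 0.10. After all libraries were thinned to the depth of LT4 replicate 3, in a single random draw, they were 0.13 and 0.10. The thinned fit tested the 12 mitotic but only 17 of the 23 other kinesins, so its second median covers fewer genes. Values after thinning also carry the sampling noise of that draw. The cause of these shifts was not tested.

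**Figure D3:**
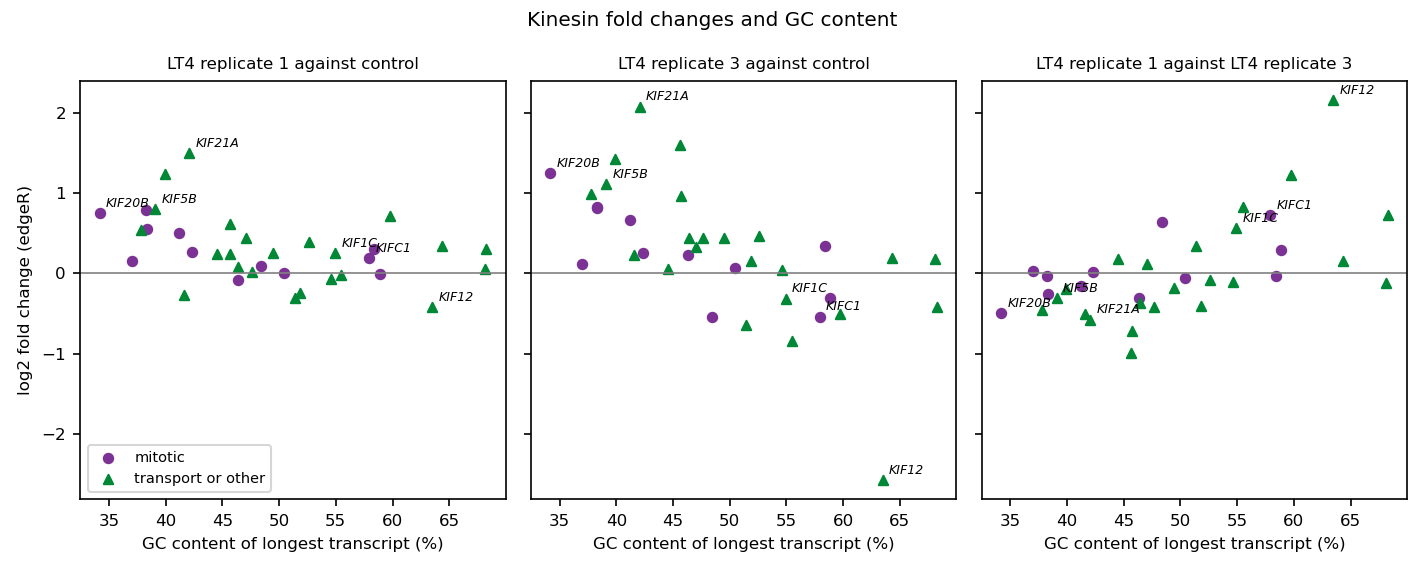
Log2 fold change of each tested kinesin (vertical axis) against the GC content of its longest transcript in percent (horizontal axis), for LT4 replicate 1 against control, LT4 replicate 3 against control, and LT4 replicate 1 against LT4 replicate 3. Circles are mitotic and triangles other kinesins. Across the 35 genes r was -0.42, -0.64 and 0.59 in the 3 panels from left to right.

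KIF21A, a kinesin-4 that restrains microtubule growth at the cell cortex and in axons, had the largest positive fold change of the family. It had 12.3 and 18.3 CPM in the LT4 libraries, against 6.09, 2.95 and 3.89 CPM in the controls, after trimmed-mean (TMM) scaling. Both LT4 libraries were above every control, and the lower LT4 value was about 2 times the highest control. The means were 15.3 ± 4.25 CPM in LT4 libraries (SD, n = 2) and 4.31 ± 1.61 CPM in controls (SD, n = 3). The log2 fold change was 1.75 (SE 0.31), with an adjusted p of 0.0501 by edgeR, just outside the threshold. The gene spans chr12:39293228-39443390 on the minus strand, and its level in controls was low, at 1.12 ± 0.454 TPM.

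KIF5B, the heavy chain of kinesin-1 in most cell types and a carrier of mitochondria and lysosomes, came next in the strength of its test. It had 57.6 and 71.4 CPM in the LT4 libraries, against 38.3, 25.8 and 35 CPM in the controls, with no overlap. On the log2 scale it differed by 0.94 (SE 0.18), with an adjusted p of 0.0657 by edgeR. The means were 64.5 ± 9.74 CPM in LT4 libraries (SD, n = 2) and 33.0 ± 6.52 CPM in controls (SD, n = 3). At 14.8 ± 3.19 TPM in controls it was the most abundant kinesin-1 heavy chain, and it lies at chr10:32009010-32056431 on the minus strand.

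Each LT4 library was also set against the same 3 controls in a fit with 3 groups, in which a lone library is assumed to vary like the controls. KIF21A and KIF5B were the 2 kinesins called in each of these comparisons, both higher. Over all genes, 3.36% were called for LT4 replicate 1 (2.25% higher and 1.11% lower) and 4.07% for LT4 replicate 3 (2.47% higher and 1.6% lower). With p left unadjusted, 8 kinesins were higher and 0 lower at 0.05 in LT4 replicate 1, against 9.98% of all genes higher and 8.42% lower. In LT4 replicate 3 the same level gave 6 higher and 5 lower, against 9.9% and 9.75%. For KIF21A the log2 fold changes were 1.50 (SE 0.30, adjusted p 0.00378) in LT4 replicate 1 and 2.07 (SE 0.37, adjusted p 0.000756) in LT4 replicate 3. KIF5B had 0.80 (SE 0.17, adjusted p 0.0090) in LT4 replicate 1 and 1.11 (SE 0.20, adjusted p 0.00146) in LT4 replicate 3. Because both comparisons use the same controls, they are not independent of each other.

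Whether KIF21A and KIF5B passed changed with the libraries included and with the fit. In the fit of LT4 against control, the log2 fold change of KIF21A was 2.08 without LT4 replicate 1 and 1.50 without LT4 replicate 3. For KIF5B the values were 1.11 and 0.80. These fits leave 1 LT4 library, so their spread comes from the controls and they nearly repeat the single-library comparisons. With any 1 control left out instead, no kinesin passed in the fit of both LT4 libraries. Over all genes, 1 passed in each of these fits, against 19 with all controls kept. In LT4 replicate 1 alone, leaving out control replicate 3 gave 1.43 for KIF21A (adjusted p 0.0592) and 0.84 for KIF5B (adjusted p 0.0753), so neither passed. With the GC trend removed, KIF21A had 1.61 (adjusted p 0.0272) and KIF5B 0.71 (adjusted p 0.0394) in the fit of both LT4 libraries. With the replicate number added to that fit as a block, both were among 427 genes that passed, against 19 without the block. The labels do not state that libraries of the same number belong together. Over all 16 alternatives the log2 fold change of KIF21A ran from 1.50 to 2.09 with adjusted p from 3.15e-07 to 0.302, and that of KIF5B from 0.71 to 1.11 with adjusted p from 0.000104 to 0.333.

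The authors' deposited table gave KIF21A a log2 fold change of 1.51 for LT4 replicate 1 and 2.05 for LT4 replicate 3, with adjusted p of 1.98e-07 and 2.45e-07. For KIF5B the authors' deposited table gave 0.82 and 1.09, with adjusted p of 0.000519 and 2.37e-05. By the authors' deposited table, 5 of the 36 kinesins with a value had an adjusted p under 0.05 for LT4 replicate 1 (KIF21A, KIF5B, KIF14, KIF27 and KIF21B), against 6.09% of its genes. For LT4 replicate 3 the authors' deposited table listed 3 (KIF21A, KIF5B and KIF20B), against 4.84%.

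**Figure D4:**
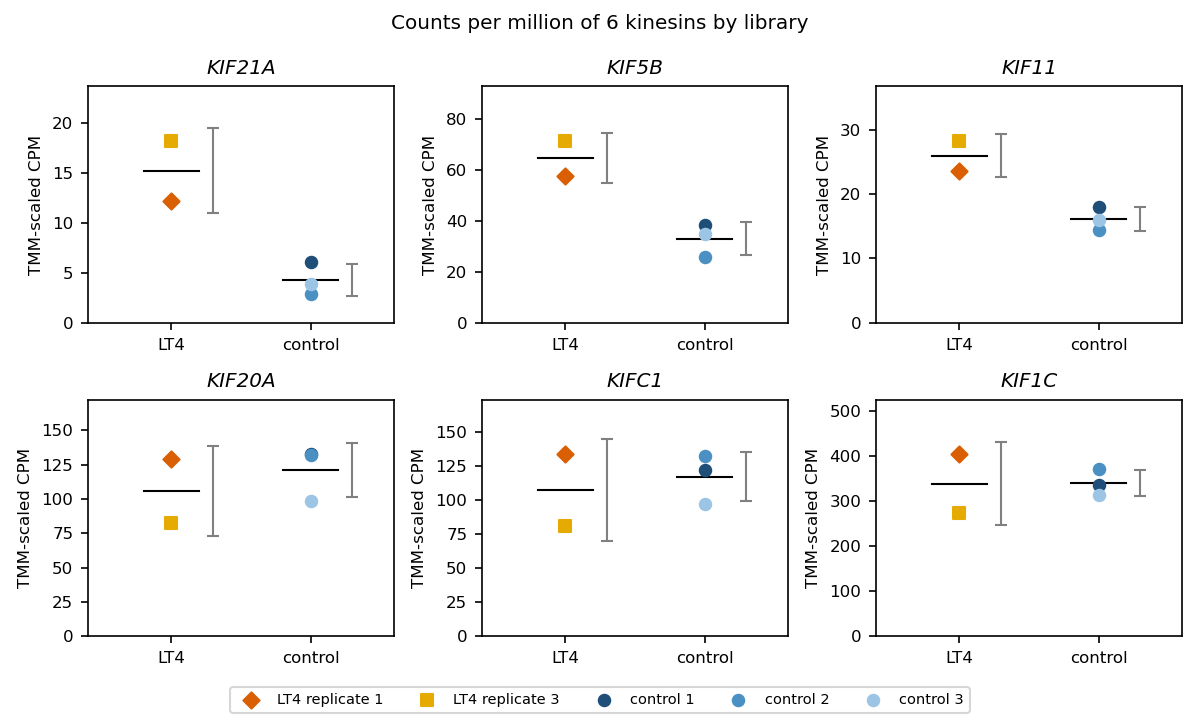
TMM-scaled CPM of 6 kinesins, with the LT4 libraries left of the 3 controls in each panel. Horizontal bars are group means and grey brackets are the SD (n = 2 and n = 3). KIF21A, KIF5B and KIF11 have both LT4 libraries above all controls, whereas for KIF20A, KIFC1 and KIF1C LT4 replicate 1 lies above LT4 replicate 3 and the groups overlap.

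The promoters of KIF21A and KIF5B are shown because these were the 2 kinesins called in the single-library comparisons. In each case the 250 bases before the RefSeq start are given on the gene's strand (GRCh38.p14), with TTTGAA and CCAAT matches in capitals, ATTGG being CCAAT on the opposite strand.
KIF21A (chr12:39443121-39443370, - strand): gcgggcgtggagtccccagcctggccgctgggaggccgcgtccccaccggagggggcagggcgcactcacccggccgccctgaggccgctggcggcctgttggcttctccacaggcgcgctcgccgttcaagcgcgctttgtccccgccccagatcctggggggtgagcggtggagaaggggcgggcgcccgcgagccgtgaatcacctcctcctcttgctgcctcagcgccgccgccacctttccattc
KIF5B (chr10:32056426-32056675, - strand): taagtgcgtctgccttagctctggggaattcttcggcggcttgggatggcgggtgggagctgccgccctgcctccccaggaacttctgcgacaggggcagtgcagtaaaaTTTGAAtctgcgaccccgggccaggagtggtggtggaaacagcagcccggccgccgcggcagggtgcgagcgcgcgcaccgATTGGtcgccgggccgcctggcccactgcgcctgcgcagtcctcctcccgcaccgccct
The KIF5B stretch holds each motif once and the KIF21A stretch neither.

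Among the spindle-assembly motors, KIF11, the plus-end motor that slides antiparallel microtubules apart, had 23.6 and 28.3 CPM in the LT4 libraries, against 18.0, 14.4 and 16 CPM in the controls. The groups did not overlap, with a fold change of 0.66 on the log2 scale (SE 0.18, adjusted p 0.143), or 0.39 with the GC trend removed. KIF15, which can share the work of KIF11 on the spindle, had 6.23 and 6.96 CPM in the LT4 libraries, against 4.39, 3.38 and 5.44 CPM in the controls, again without overlap (log2 fold change 0.55, SE 0.30, adjusted p 0.424). After the single thinning draw, to the depth at which LT4 replicate 3 held 16 counts of KIF15, the value was 0.17. KIFC1 split the LT4 libraries, with 134 and 80.9 CPM against 122, 133 and 97.3 CPM in the controls. LT4 replicate 1 lay above and LT4 replicate 3 below all controls. The log2 fold change of KIFC1 was -0.10 (SE 0.20, adjusted p 0.869) over both, 0.19 in LT4 replicate 1 and -0.54 in LT4 replicate 3.

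The chromosome-bound and microtubule-shortening mitotic motors showed small differences. KIF22 had 276 and 225 CPM in the LT4 libraries, against 288, 297 and 249 CPM in the controls, with LT4 replicate 3 below all controls (log2 fold change -0.14, SE 0.15, adjusted p 0.694). KIF2C had 152 and 158 CPM in the LT4 libraries, against 149, 158 and 146 CPM in the controls, which overlapped (0.04, SE 0.13, adjusted p 0.932). KIF18B, a plus-end motor that limits astral microtubules together with KIF2C, had 52.5 and 53.5 CPM in the LT4 libraries, against 42.4, 42.2 and 42.7 CPM in the controls. The controls lay within a narrow range and both LT4 libraries above it, and it differed by 0.32 on the log2 scale (SE 0.14, adjusted p 0.321). KIF18A, which damps chromosome movement at the metaphase plate, had 10.7 and 10.4 CPM in the LT4 libraries, against 12.3, 7.89 and 8.64 CPM in the controls (0.14, SE 0.25, adjusted p 0.844). Both of its LT4 values lay inside the control range.

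KIF4A, a chromosome-bound motor that also sets the length of the spindle midzone, had 59.7 and 74.0 CPM in the LT4 libraries, against 60.8, 66.8 and 62.6 CPM in the controls. The LT4 libraries lay on either side of the control range, and the log2 fold change was 0.06 (SE 0.15, adjusted p 0.906). KIF4B is a near-identical intronless copy of KIF4A on another chromosome, so that reads may be split between them. Over their coding sequences of 3699 and 3705 bases the genes were 95.7% identical, and the longest stretch without a difference was 151 bases. The first 60 coding bases of each (GENCODE 29, GRCh38), with the 2 differing positions in capitals, show how alike they are.
KIF4A (chrX:70290459-70290518, + strand): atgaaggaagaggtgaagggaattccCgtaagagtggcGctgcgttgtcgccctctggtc
KIF4B (chr5:155013860-155013919, + strand): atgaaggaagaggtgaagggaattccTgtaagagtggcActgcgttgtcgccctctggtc
KIF4B had 1.09 and 2.18 CPM in the LT4 libraries, against 0.487, 0.954 and 0.691 CPM in the controls, a level at which single counts weigh heavily (log2 fold change 0.96, SE 0.60, adjusted p 0.497). Its value is uncertain for both reasons.

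Among the cytokinesis motors, KIF20A, which brings the chromosomal passenger complex to the midzone, had 129 and 82.7 CPM in the LT4 libraries, against 133, 132 and 98.3 CPM in the controls. LT4 replicate 3 was below all controls and LT4 replicate 1 within their range (log2 fold change -0.17, SE 0.20, adjusted p 0.740). KIF23, a subunit of centralspindlin, had 43.6 and 43.1 CPM in the LT4 libraries, against 40.1, 37.9 and 30.9 CPM in the controls (0.26, SE 0.16, adjusted p 0.492). Both LT4 libraries were just above the highest control, and the value was 0.13 with the GC trend removed, 0.15 after thinning and 0.17 with the length trend removed. KIF20A overlaps BRD8 and CDC23 on the opposite strand, and whether the counting used strand is not given in the sources used here. Other members also overlap expressed genes, among them KIF4A (PDZD11), KIF18A (METTL15) and KIF24 (UBAP1) on the opposite strand. For KIF15 (TMEM42) and KIF2A (IPO11) the overlapping gene lies on the same strand.

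KIF14, which binds citron kinase at the midbody, had 8.90 and 9.14 CPM in the LT4 libraries, against 5.93, 3.90 and 5.53 CPM in the controls (log2 fold change 0.81, SE 0.26, adjusted p 0.207). KIF20B, needed for late cytokinesis, had 8.01 and 11.3 CPM in the LT4 libraries, against 6.42, 2.60 and 5.18 CPM in the controls (0.95, SE 0.35, adjusted p 0.260, and 0.59 with the GC trend removed). For both genes the LT4 libraries lay above every control, though neither passed the adjusted threshold. The mitotic members with the largest positive fold changes, KIF20B, KIF14, KIF11 and KIF15, had 1.82, 1.85, 8.45 and 2.19 TPM in controls. KIF22, KIFC1 and KIF20A, with negative values, were among the most abundant. KIF2C, also abundant at 109 TPM, had 0.04, and KIF18A, at 5.60 TPM, had 0.14.

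MKI67, a general marker of cycling cells, had 456 and 362 CPM in the LT4 libraries, against 437, 397 and 333 CPM in the controls, overlapping (log2 fold change 0.07, SE 0.15, adjusted p 0.875). TOP2A, the mitotic topoisomerase, had 104 and 87.9 CPM in the LT4 libraries, against 66.7, 57.6 and 46.1 CPM in the controls (0.77, SE 0.17, adjusted p 0.0969). Its groups did not overlap, and its log2 fold change was 0.88 in LT4 replicate 1 and 0.63 in LT4 replicate 3. CENPE, a kinetochore kinesin whose symbol falls outside the family rule, had 7.42 and 7.83 CPM in the LT4 libraries, against 6.99, 2.34 and 4.41 CPM in the controls (0.72, SE 0.38, adjusted p 0.431). For STARD9, also a kinesin outside the rule, the value was 0.23 (SE 0.29, adjusted p 0.763).

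Besides KIF5B, the kinesin-1 heavy chains KIF5A and KIF5C are mainly neuronal. KIF5A had 3.86 and 3.05 CPM in the LT4 libraries, against 5.2, 4.86 and 4.23 CPM in the controls, with both LT4 libraries below every control (log2 fold change -0.40, SE 0.30, adjusted p 0.589). After the single thinning draw, to the depth at which LT4 replicate 3 held 7 counts of KIF5A, the value was -0.91. KIF5C was lower still and overlapped (0.18, SE 0.36). A test of one heavy chain's change against another's was not made.

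Kinesin-2 motors carry cargo into cilia and along axons as pairs of KIF3A with KIF3B or KIF3C. KIF3A had 7.32 and 10.0 CPM in the LT4 libraries, against 5.36, 4.34 and 5.44 CPM in the controls, without overlap (log2 fold change 0.71, SE 0.27, adjusted p 0.265, and 0.43 with the GC trend removed). KIF3B had 49.8 and 66.6 CPM in the LT4 libraries, against 53.0, 45.6 and 48.8 CPM in the controls (0.21, SE 0.16, adjusted p 0.583). KIF3C had 15.4 and 8.70 CPM in the LT4 libraries, against 15.1, 18.5 and 13.2 CPM in the controls (-0.25, SE 0.24, adjusted p 0.673). LT4 replicate 3 was above all controls for KIF3B and below all for KIF3C, and LT4 replicate 1 was within the control range for both.

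In the kinesin-3 group, KIF1C had 405 and 274 CPM in the LT4 libraries, against 336, 371 and 313 CPM in the controls. The LT4 libraries lay on opposite sides of all controls, and the fit over both gave 0.00 (SE 0.17, adjusted p 0.996). KIF1B, a carrier of mitochondria and synaptic vesicle precursors, had 49.9 and 46.1 CPM in the LT4 libraries, against 38.6, 36.8 and 34.7 CPM in the controls, without overlap (0.40, SE 0.14, adjusted p 0.25). KIF1B has the greatest exon length of the tested kinesins, 17720 bases when the exons of all its transcripts are merged. With the length trend removed its value was 0.09 (adjusted p 0.859). The endosome motors KIF13A, KIF13B and KIF16B had log2 fold changes of 0.22, -0.03 and 0.51, none with an adjusted p under the threshold.

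KIF27, a relative of the Hedgehog regulator KIF7, had 2.67 and 3.05 CPM in the LT4 libraries, against 1.06, 1.13 and 1.21 CPM in the controls (log2 fold change 1.29, SE 0.42, adjusted p 0.20). Both LT4 values were more than 2 times every control, at a level where LT4 replicate 3 held only 7 counts. KIF21B, the close relative of KIF21A, had 11.2 and 4.79 CPM in the LT4 libraries, against 7.47, 8.07 and 4.93 CPM in the controls (0.40, SE 0.32, adjusted p 0.601). Its LT4 libraries lay on opposite sides of the control range, whereas for KIF21A both lay above it.

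The microtubule depolymerase KIF2A, which acts at minus ends, had 8.61 and 12.2 CPM in the LT4 libraries, against 10.2, 10.1 and 10.9 CPM in the controls (log2 fold change -0.08, SE 0.23, adjusted p 0.911). KIF24, which restrains cilium formation, had 11.1 and 12.6 CPM in the LT4 libraries, against 10.4, 8.93 and 8.56 CPM in the controls (0.32, SE 0.22, adjusted p 0.531, and 0.10 after thinning). Both LT4 libraries were above every control for KIF24, whereas for KIF2A they lay on either side of the controls. The minus-end motors KIFC2 and KIFC3 had 0.11 (SE 0.15) and 0.28 (SE 0.16), with 41.1 and 37.0 CPM of KIFC3 in the LT4 libraries, against 28.4, 36.3 and 32.4 CPM in the controls. With the length trend removed KIFC3 had 0.11, and after thinning 0.18, and with the GC trend removed KIFC2 had 0.28 and KIFC3 0.43.

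KIF26A, an atypical member without ATPase activity, had 23.1 and 13.9 CPM in the LT4 libraries, against 19.7, 20.6 and 15.7 CPM in the controls (log2 fold change 0.08, SE 0.22, adjusted p 0.913). LT4 replicate 1 was above and LT4 replicate 3 below every control. KIF12, described in kidney and liver epithelia, had 1.98 and 0.435 CPM in the LT4 libraries, against 2.76, 3.12 and 2.07 CPM in the controls, both LT4 libraries being lower (-0.75, SE 0.46, adjusted p 0.491). The LT4 replicate 3 value of KIF12 is a single count.

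In a direct comparison of LT4 replicate 1 with LT4 replicate 3, no kinesin passed an adjusted p of 0.05 by edgeR, while 2.44% of all genes did (1.41% higher and 1.03% lower in LT4 replicate 1). With p left unadjusted, 6 kinesins were higher in LT4 replicate 1 and 0 lower, against 8.79% and 7.26% of all genes, limma voom called 0 and DESeq2 called 1, KIF1C. The shares of all genes called were 0.499% by limma voom and 5.63% by DESeq2. The smallest adjusted p were those of KIFC1 (log2 fold change 0.73, adjusted p 0.0588), KIF1C (0.56, adjusted p 0.0823) and KIF20A (0.64, adjusted p 0.112). All 3 passed without control replicate 3, as did 4.77% of all genes, and KIFC1 alone without control replicate 2, as did 3.78%. KIF21A and KIF5B had -0.57 (adjusted p 0.525) and -0.31 (adjusted p 0.568) in this comparison.

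None of the genes that work with the kinesins passed the adjusted threshold in LT4 against control by edgeR or limma voom. In each single-library comparison some of these genes did pass, and those are not listed here. Over all genes tested, 49.6% of log2 fold changes were positive, and with p left unadjusted 8.58% were higher and 5.28% lower at 0.05. Of 22 light chains, adaptors and regulators tested, 12 log2 fold changes were positive and the median was 0.01. With p left unadjusted, 2 were higher and 3 lower at 0.05. The smallest p there were those of TRAK2, a mitochondrial adaptor of KIF5B (0.80, adjusted p 0.139), and MAPK8IP2, a scaffold that binds kinesin-1 (-0.71, adjusted p 0.218). Dynein and dynactin, the minus-end counterpart, had 27 genes tested, 15 positive, a median of 0.03, and 3 higher and 0 lower at that level. DYNC1H1, the dynein heavy chain, had 687 and 648 CPM in the LT4 libraries, against 531, 507 and 416 CPM in the controls (0.46, SE 0.14, adjusted p 0.169), and CAPZA1, an actin-capping subunit of dynactin, had 0.47 (adjusted p 0.266). DESeq2 called none in either list.

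Of 33 mitotic partners tested, 22 were positive with a median of 0.15. With p left unadjusted, 4 were higher and 1 lower at 0.05, against 8.58% and 5.28% of all genes tested. ECT2, the exchange factor that centralspindlin recruits to the midzone, had 19.9 and 18.3 CPM in the LT4 libraries, against 11, 8.67 and 9.33 CPM in the controls (log2 fold change 0.99, SE 0.20, adjusted p 0.0759), without overlap. AURKC, a germline-enriched Aurora kinase, was near the detection limit (-1.69, adjusted p 0.302). DESeq2 called 1 of these partners, ECT2, higher in the LT4 libraries, against 1.1% of the 10346 genes to which it gave an adjusted p. Tubulins, the track itself, had 15 genes tested, 4 positive, a median of -0.11, and 1 higher and 3 lower at that level, and DESeq2 called none. TUBE1 had 0.95 (adjusted p 0.165) and TUBA1A -0.43 (adjusted p 0.217). Of 13 proliferation markers, 6 were positive with a median of -0.15, with 2 higher and 1 lower at that level. DESeq2 called 1 of the 13, TOP2A, higher in the LT4 libraries, and LIN54, a DNA-binding subunit of MuvB, had 1.25 (adjusted p 0.126).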

How the data were processed

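Per the file headers, the table analysed gives each library's unnormalized counts by Ensembl gene, together with TPM values that the authors scaled by transcript length. For each LT4 library the authors also deposited p-values, raw and adjusted, and log2 fold changes; no test is named, and they are quoted only as theirs. Per the labels' protocols, RNA came from TRIzol extraction and TruSeq stranded mRNA libraries. The submitters' processing notes list GRCh38, HISAT2 2.1.0, fastp 0.20.0, Subread 2.0.1, featureCounts and SAMtools 1.9. For the annotation and strand setting, the sources used here say nothing. A further 2 per-sample columns and 3 comparison columns match no library analysed here and were not used.

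Symbols came from the table, in which 16083 of 60623 rows have none, and positions, exon lengths and GC content from GENCODE 29 (58516 genes matched). Counts of all 5 libraries were tested with edgeR 4.0.16 (R 4.3.3): its expression filter, TMM scaling, robust quasi-likelihood fit, no covariate, and p-values adjusted by Benjamini-Hochberg across 13833 genes (threshold 0.05). A standard error is the size of the log2 fold change over the root of its F statistic. The biological coefficient of variation was 14.6%. Single LT4 libraries were tested in a fit with 3 groups. DESeq2 1.42.0, limma 3.58.1, other scalings, filters, offsets and left-out libraries were alternatives. The code was tested on simulated data. Limits for a count of 0 are 3 counts per library and cover counting error only.

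The genes named are all 12 mitotic kinesins, other kinesins past a threshold, with the 10 highest control TPM, the 6 smallest p, or the 3 largest rises or falls, the kinesins under the filter, and the 2 smallest p of each gene list. KIF5C, KIF13A, KIF13B, KIF16B and KIF21B were named after their values were seen, as were TICRR, BRD8, CDC23 and the other genes given as overlapping a kinesin. The members and lists were chosen with earlier results of these data known.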

Additional observations from a re-analysis of the deposited data

How the results depend on the processing

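With 2 LT4 libraries, 1 of them shallow, small changes of low genes were not detectable. For LT4 against control, 19 genes passed; 1 passed at a threshold of 0.01, 35 with a gene length offset, 80 with a GC offset (added after the data were seen), 114 with DESeq2, 311 with no count filter, and 1 to 598 when 1 library was left out. The 2 high values, 598 without LT4 replicate 1 and 526 without LT4 replicate 3, take the spread from controls. Kinesins called were 0 in the test as reported. They were 1 (KIF21A) with RLE size factors and without mitochondrial and histone genes, where 21 and 25 genes passed. They were 2 (KIF21A and KIF5B) with no filter, with the length offset, with the GC offset and with DESeq2. With 1 control left out they were 0, and 1 gene passed in each of those fits. The labels do not state that libraries of the same replicate number belong together, and the reported fit used no pairing. Deviations from the group means had correlations of 0.21 and 0.21 in the 2 pairs of the same number. The replicate block gave 427 genes and 2 kinesins, KIF21A and KIF5B.

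For LT4 replicate 1 against control, 465 genes became 128 at 0.01, 245 with library totals only (211 higher and 34 lower, compared with 311 and 154), 171 with limma voom, 174 with DESeq2, and 225 to 579 when 1 control was left out, with 225 without control replicate 3; kinesins called were 1 with DESeq2, which gave KIF21A no adjusted p, and 0 to 3 when 1 control was left out. For LT4 replicate 3, 563 became 169 at 0.01, 248 with totals, 153 with GC, 157 with limma voom and 229 with DESeq2. The number was 783 of 24553 with no filter and 739 of 13833 with length. It was 379 to 1020 when 1 control was left out, with 1020 without control replicate 3. Kinesins called were 4 with no filter, 4 with length, 1 with DESeq2 and 2 to 4 when 1 control was left out. Between the LT4 libraries, 338 became 95 at 0.01, 124 with totals, 531 with no filter and 176 with at least 50 counts. The number was 399 of 10619 after thinning, 380 of 13833 with length and 44 with GC (2 higher and 42 lower). It was 69 with limma voom, 205 with DESeq2 and 235 to 638 when 1 control was left out. Kinesins called were 3 with no filter, 1 after thinning, 1 with length, 1 with DESeq2 and 0 to 3 when 1 control was left out.

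With no filter the median log2 fold change of all genes was -0.084 for both LT4 libraries, -0.10 for replicate 1 and -0.23 for replicate 3. The mitotic median was 0.10 with GC and 0.11 to 0.33 when 1 library was left out, and kinesins below every control were 2 to 9. Signs turned for values near 0: KIF18A to -0.14 with GC and -0.034 with the block, and KIF1C to -0.032 with no filter, -0.15 with length and -0.0027 with limma voom. After thinning KIF26A was -0.037, KIF2A 0.031 and KIF2C -0.018. With length KIF26A was -0.020, and with no filter KIF2C was -0.0024. When 1 library was left out, KIF1C ran from -0.31 to 0.25, KIF20A from -0.55 to 0.093, KIF26A from -0.42 to 0.30, KIF2A from -0.27 to 0.23, KIF4A from -0.086 to 0.22 and KIFC1 from -0.54 to 0.19, in each case between the fits without either LT4 library. The cause of these shifts was not tested.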
